A study of Rattus norvegicus with 6 samples.

Results

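Arterial endothelium is marked by a set of connexins and other genes, and 8 of these were followed here across the dermal endothelial cells of Il33 knockout and wildtype rats. They are the connexins Gja1, Gja4 and Gja5, the kinase Bmx, the secreted guidance cue Sema3g, the elastic fibre protein Fbln5, the chemokine receptor Cxcr4 and the netrin receptor Unc5b. They were chosen by gene symbol, each had 1 probeset, and all 8 were among the 11515 genes tested of 15037 genes with a symbol. Affymetrix arrays were used to measure gene expression in cells of abdominal skin from 6 Sprague-Dawley rats, 3 of the IL-33 knock-out genotype (animals 28 and 27, female, and 52, male) and 3 wildtype (34 and 45, female, and 37, male). No source used here gives the age of the rats or the design of the knockout allele. Skin had been digested with collagenase and DNase, depleted of CD45-positive leukocytes and of Lyve-1-positive lymphatic endothelium, and the cells carrying CD31, an endothelial surface protein, had been kept. The sort did not separate arteries from veins or capillaries. Each value is thus an average over the vessels of the skin and any other cells that remained. In such bulk samples, fewer cells of a type and less RNA per cell cannot be told apart.

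Connexins are membrane proteins that assemble into gap junctions, the channels through which neighbouring cells exchange ions and small molecules. Gja4 and Gja5 are the connexins typical of arterial endothelium, where blood flow and Notch signalling favour their expression, and they carry signals along the vessel wall. Gja1 is more widely expressed, in smooth muscle, fibroblasts, keratinocytes and endothelium at sites of disturbed flow. Arterial identity is acquired during development under VEGF and Notch signals and is partly maintained by flow in the adult.

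The targeted gene and the cell markers were examined first. Il33 fell by 6.84 (log2) in knockout cells (limma adjusted p = 0.0439), with values of 8.07 to 9.82 in knockout and 13.86 to 16.60 in wildtype animals. The adjusted p ran from 2e-04 to 0.661 over 17 other settings, and the call was lost without knockout 28, 27 or 52 or wildtype 45 or 37. It was also lost with no filter on dim genes (limma adjusted p = 0.0854), with a filter at the 50th percentile (0.0544) and in the females only (0.131). The pan-endothelial list had medians of 14.63 to 15.08 on the knockout arrays and of 14.30 to 14.80 on the wildtype arrays, and Pecam1, which encodes CD31, averaged 15.17 and 15.29. Markers of other skin cells were also present and uneven. The keratinocyte list (8 of 12 genes measured) had medians of 7.98 to 10.72 in the knockout and of 7.51 to 13.88 in the wildtype, the highest on wildtype 34. The pericyte list (8 of 8) had medians of 9.21 to 10.69 and of 7.99 to 9.13, the lowest on wildtype 45. The fibroblast list (8 of 10) ran between 8.82 and 10.18 and between 9.41 and 12.02, and the smooth muscle list (10 of 10) between 7.21 and 8.19 and between 7.26 and 8.39. Leukocyte markers (11 of 12) had medians of 4.02 to 4.41 and of 3.99 to 5.17, near the medians of the 23 background probesets, which were 4.55 to 4.73. The 8 spike-in control transcripts, which are added during sample preparation, averaged 8.82 to 10.26 in the knockout and 8.91 to 10.42 in the wildtype, and were lowest on the male arrays 52 and 37.

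None of the 8 arterial genes passed the test between knockout and wildtype. Sema3g and Gja4 had the largest differences, by 1.03 and 0.88 on the log2 scale, both towards higher values in the knockout, and Gja5 differed by -0.66. Of the 8 genes 6 had a higher and 2 a lower mean in the knockout, and the median of their differences was 0.27, against 0.037 over all genes tested, 54.1% of which had a higher mean. At an adjusted p under 0.05 the count was 0 of 8, where limma called 0.00868% of all genes tested, and all 8 had an adjusted p of 0.999. At an unadjusted p under 0.05 it was again 0 of 8, against 1.97% of all genes. The groups overlapped for each of the 8, while they did not overlap for 6.25% of all genes.

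**Figure D1:**
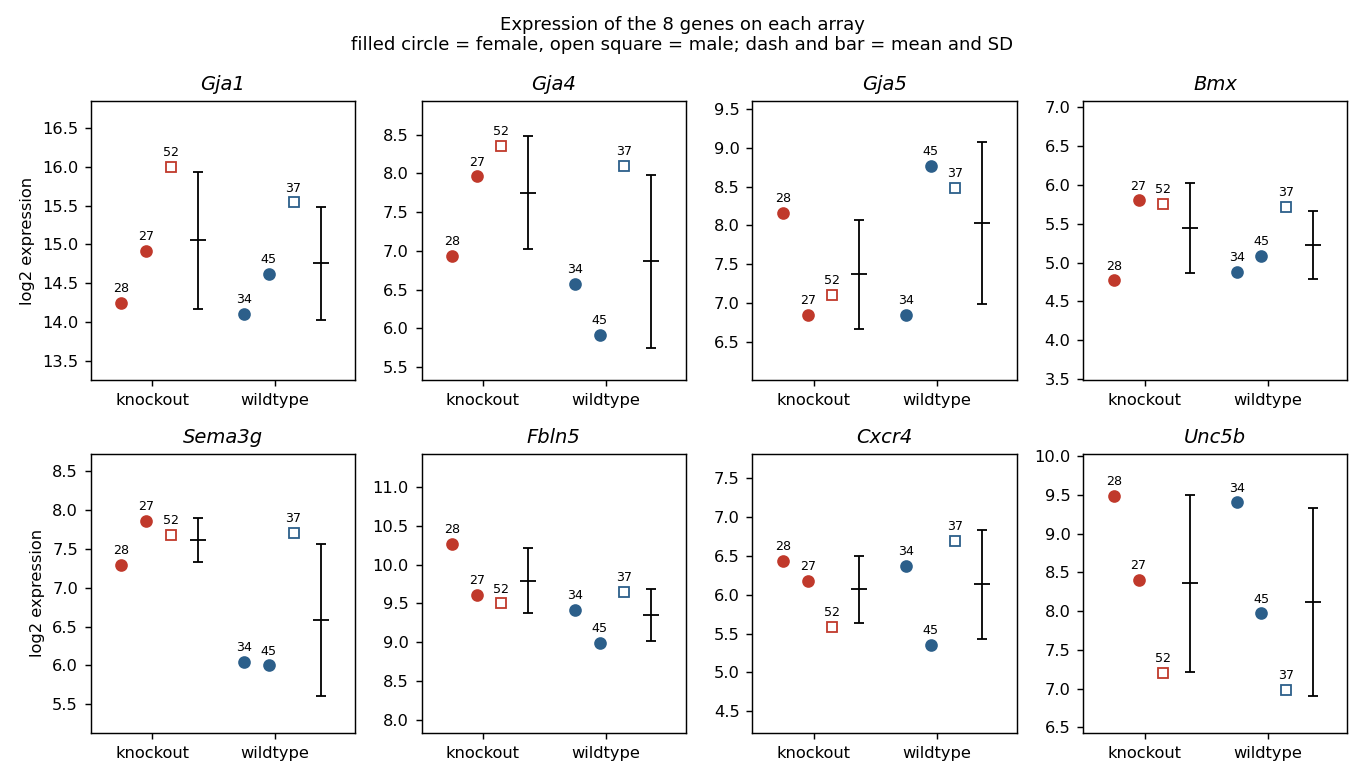
Log2 expression (vertical axis, 3.6 units in each panel) of the 8 arterial genes on each array, with the knockout animals left of the wildtype animals and the animal number above each point. Circles are females and squares males, and the dash and bar give the mean and SD (n = 3); in every panel the ranges of the knockout and wildtype animals overlap.

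Gja4 had log2 values of 6.94, 7.96 and 8.35 in knockout 28, 27 and 52, against 6.58, 5.92 and 8.10 in wildtype 34, 45 and 37. The wildtype male lay between knockout 27 and knockout 52, and both wildtype females lay below every knockout animal. The means were 7.75 ± 0.73 and 6.87 ± 1.12 (SD, n = 3 each), a difference of 0.88 with a standard error of 0.58 and a 95% interval of -0.42 to 2.18 (limma, unadjusted p = 0.160). The females differed by 1.20 and the male pair by 0.25, and the interaction of genotype with sex was -0.95 (limma adjusted p = 0.999). Without wildtype 37 the difference between the genotypes was 1.5 and without wildtype 45 it was 0.41. Wildtype 45 also had the lowest median of the pericyte list, and with the keratinocyte median as a covariate the difference was 0.36.

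Sema3g encodes a class 3 semaphorin, a secreted cue that signals through neuropilins and plexins and is expressed by arterial endothelium in the mouse. Its log2 values were 7.30, 7.86 and 7.68 in knockout 28, 27 and 52, against 6.04, 6.0 and 7.71 in wildtype 34, 45 and 37. The knockout animals lay close together, the wildtype females lay more than 1 unit lower, and the wildtype male lay within the knockout range. The means were 7.61 ± 0.29 and 6.58 ± 0.98, a difference of 1.03 (standard error 0.48, 95% interval -0.050 to 2.11, unadjusted p = 0.0594). The females differed by 1.56 and the male pair by -0.03, with an interaction of -1.59 (standard error 0.73, unadjusted p = 0.0590, adjusted p = 0.999). Without wildtype 37 the difference was 1.59 and the adjusted p 0.501, and Sema3g was not called without any other single array either. With sex as a covariate the unadjusted p was 0.0259 and the adjusted p 0.961. With the keratinocyte median as a covariate the difference was 0.57, and with the spike-in mean 0.76. Keratinocyte medians were 10.72, 7.98 and 7.99 on knockout arrays 28, 27 and 52, against 13.88 and 10.84 on wildtype arrays 34 and 45, which had the lowest Sema3g, and 7.51 on wildtype array 37; the part of these cells in the Sema3g difference was not tested.

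Gja5 had log2 values of 8.16, 6.84 and 7.10 in knockout 28, 27 and 52, against 6.84, 8.77 and 8.48 in wildtype 34, 45 and 37. The highest values came from wildtype 45 and 37 and the lowest from knockout 27 and wildtype 34, so each genotype held both high and low animals. The means were 7.37 ± 0.70 and 8.03 ± 1.04, a difference of -0.66 (standard error 0.55, 95% interval -1.91 to 0.58, unadjusted p = 0.260). The females differed by -0.31 and the male pair by -1.38. Without wildtype 34 the difference was -1.26, and without wildtype 45 it was -0.29.

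Both arterial connexins thus varied strongly between animals, but on different arrays. Wildtype 45 had the lowest Gja4 and the highest Gja5 of the 6 animals. To compare patterns, each gene was centred on its own mean over the 6 arrays, and the root mean square of the difference between 2 genes was taken as their distance. Gja4 and Sema3g lay 0.36 apart. Of the other genes tested, with predicted names (LOC or RGD) passed over, 1.52% lay nearer to Gja4 and 1.77% nearer to Sema3g. Gja4 and Gja1 lay 0.54 apart, with 8.23% of these genes nearer to Gja4 and 24.2% nearer to Gja1. By contrast, Gja4 and Gja5 lay 1.40 apart, with 95.9% nearer to Gja4 and 97.4% nearer to Gja5. The genes nearest to Gja4 were Nop2, Map4 and Abcg1 (distances 0.13 to 0.17), and those nearest to Sema3g were Litaf, Impa1 and Tpp1 (0.096 to 0.15). Nearest to Gja5 were Bloc1s4, Slc25a29 and Efhd2, at the larger distances of 0.24 to 0.35. With 6 arrays that also differ in sex, spike-in signal and other cells, these distances describe the animals measured and no more.

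The windows around the RefSeq start sites of Gja4, Sema3g and Gja5 are shown because the first 2 genes were close in pattern and the third was far from both. Each runs from 250 bases before to 50 after the start in the rat assembly GRCr8, 5′ to 3′ on the gene's strand. Capitals mark every match, on either strand, to 6 short motifs: TGGGAA (the core bound by RBPJ, the DNA-binding partner of Notch), AGGAAG (ETS factors), CACCC (Kruppel-like factors), ACAAT (SOX factors), ACGTG (hypoxia-inducible factors) and TAAACA (FOX factors). The Gja4 window is chr5:144920275-144920574 on the minus strand, the Sema3g window chr16:6419775-6420074 on the plus strand and the Gja5 window chr2:187290977-187291276 on the plus strand.
Gja4: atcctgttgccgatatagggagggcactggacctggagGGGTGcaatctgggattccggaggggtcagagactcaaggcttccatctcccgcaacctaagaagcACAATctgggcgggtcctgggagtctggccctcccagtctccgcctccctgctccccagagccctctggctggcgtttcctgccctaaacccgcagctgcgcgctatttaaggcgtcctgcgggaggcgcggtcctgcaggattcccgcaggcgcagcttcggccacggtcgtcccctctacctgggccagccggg
Sema3g: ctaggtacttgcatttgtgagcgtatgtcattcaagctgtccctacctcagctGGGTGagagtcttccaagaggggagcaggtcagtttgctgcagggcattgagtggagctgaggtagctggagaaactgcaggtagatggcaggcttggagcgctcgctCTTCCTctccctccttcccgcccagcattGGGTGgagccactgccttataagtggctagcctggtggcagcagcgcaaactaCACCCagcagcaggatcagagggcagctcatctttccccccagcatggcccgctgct
Gja5: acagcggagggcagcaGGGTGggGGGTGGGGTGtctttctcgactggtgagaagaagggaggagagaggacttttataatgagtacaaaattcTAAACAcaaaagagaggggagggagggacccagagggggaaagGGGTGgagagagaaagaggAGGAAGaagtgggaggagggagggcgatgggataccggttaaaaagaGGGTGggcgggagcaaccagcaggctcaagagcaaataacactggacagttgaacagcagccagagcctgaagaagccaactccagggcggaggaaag
The CACCC motif occurred 1 time in the Gja4 window, 3 times in the Sema3g window and 5 times in the Gja5 window, and 54.9% of the 33469 RefSeq windows of the same length held it at least 1 time. AGGAAG occurred in the windows of Sema3g, Gja5 and Gja1 (34.5% of all windows), ACAAT in those of Gja4, Bmx, Fbln5 and Unc5b (33.7%), and TAAACA in those of Gja5 and Fbln5 (13.7%). TGGGAA occurred among the 8 genes only in the Bmx window (25.7%) and ACGTG only in the Gja1 window (19.3%). No 2 different motifs overlapped in the windows shown. A match of letters is a description and not a binding site.

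Gja1 had log2 values of 14.24, 14.91 and 16.00 in knockout 28, 27 and 52, against 14.10, 14.62 and 15.54 in wildtype 34, 45 and 37. The male was highest in each genotype, and the females of both lay between 14.10 and 14.91. The means were 15.05 ± 0.89 and 14.75 ± 0.73, a difference of 0.30 (standard error 0.52, 95% interval -0.87 to 1.47, unadjusted p = 0.583). The sign rested on single animals, with -0.18 without knockout 52 and -0.03 without wildtype 34, and it was -0.20 with the keratinocyte median and -0.053 with the spike-in mean as a covariate. Keratinocytes also express Gja1. Wildtype 34 had the highest keratinocyte median and the lowest Gja1, and the part of keratinocyte RNA in the Gja1 values was not tested. The genes nearest in pattern were Acvr2a, Hes1 and Letm2, at distances of 0.065 to 0.094. All arrays lay at least 3.93 below the highest value of the array, so Gja1 was clear of the ceiling of the measurement.

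Bmx encodes a cytoplasmic tyrosine kinase of the Tec family that marks arterial and endocardial endothelium in the mouse. Its log2 values were 4.77, 5.80 and 5.76 in knockout 28, 27 and 52, against 4.88, 5.09 and 5.72 in wildtype 34, 45 and 37. Only knockout 27 and 52 lay above the highest of the 23 background probesets of their own array, which reached 5.36 to 5.87, so the signal of this gene was barely separated from background. The difference was 0.21 (standard error 0.40, 95% interval -0.69 to 1.12, unadjusted p = 0.608), and it was -0.0046 with the spike-in mean and -0.12 with the keratinocyte median as a covariate. Zmynd8, Ankh and Ccnd3 were nearest in pattern (0.088 to 0.092).

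Fbln5 encodes fibulin-5, an extracellular protein needed for the assembly of elastic fibres, which fibroblasts and smooth muscle cells make as well as endothelium. It had log2 values of 10.27, 9.61 and 9.5 in knockout 28, 27 and 52, against 9.42, 8.99 and 9.65 in wildtype 34, 45 and 37. Knockout 28 was the highest and wildtype 45 the lowest, and the other 4 animals lay between 9.42 and 9.65. The means were 9.79 ± 0.42 and 9.35 ± 0.34, a difference of 0.44 (standard error 0.36, 95% interval -0.36 to 1.24, unadjusted p = 0.247). Without knockout 28 it was 0.20, in the females alone 0.74 and for the male pair -0.15. Fbln5 had the smallest SD over the 6 arrays of the 8 genes (0.42), though Bmx had a smaller range (1.03, against 1.28 for Fbln5). The genes nearest to Fbln5 were Fbxo31, Filip1 and Dnai7 (0.077 to 0.081). The fibroblast list had a median difference of -0.70, with 6 of 8 means lower in the knockout and 0 genes called. That median was -0.022 without wildtype 34, -1.09 without wildtype 45 and -1.25 without wildtype 37, and the part of fibroblast RNA in the Fbln5 values was not tested.

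Cxcr4 is the receptor for the chemokine Cxcl12 and is found on arterial and tip endothelial cells as well as on leukocytes. Its log2 values were 6.44, 6.18 and 5.59 in knockout 28, 27 and 52, against 6.37, 5.35 and 6.69 in wildtype 34, 45 and 37. Wildtype animals were both the highest and the lowest, and wildtype 45 lay just under the highest background probeset of its array (5.36). The means were 6.07 ± 0.44 and 6.14 ± 0.70, a difference of -0.067 (standard error 0.43, 95% interval -1.02 to 0.89, unadjusted p = 0.879). The females differed by 0.45 and the male pair by -1.10, with an interaction of -1.55 (unadjusted p = 0.0944, adjusted p = 0.999). The sign of the difference between the genotypes changed without knockout 52 (0.17), wildtype 34 (0.05) or wildtype 37 (0.21). Leukocyte markers were near background as a list, and their median difference was -0.51, with 8 of 9 tested genes lower on average and 0 called; it was -0.07 without wildtype 34 and -0.22 without knockout 52. Nearest in pattern to Cxcr4 were Pced1b, Psmc3ip and Cyp39a1 (0.089 to 0.16).

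Unc5b is a receptor for netrins and other ligands that restrains the sprouting of arterial and tip endothelial cells. It had log2 values of 9.48, 8.40 and 7.20 in knockout 28, 27 and 52, against 9.40, 7.97 and 6.98 in wildtype 34, 45 and 37. The male was lowest in each genotype, and knockout 28 and wildtype 34 were almost equally high. The means were 8.36 ± 1.14 and 8.12 ± 1.22, a difference of 0.24 (standard error 0.69, 95% interval -1.30 to 1.79, unadjusted p = 0.732), and it was -0.32 without knockout 28 and -0.325 without wildtype 37. With the spike-in mean as a covariate the difference was 0.74 and with the keratinocyte median 1.03 (unadjusted p = 0.0369, adjusted p = 0.999). The nearest genes were Or2y1i, Sdr16c5 and Svip, at distances of 0.14 to 0.30.

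**Figure D2:**
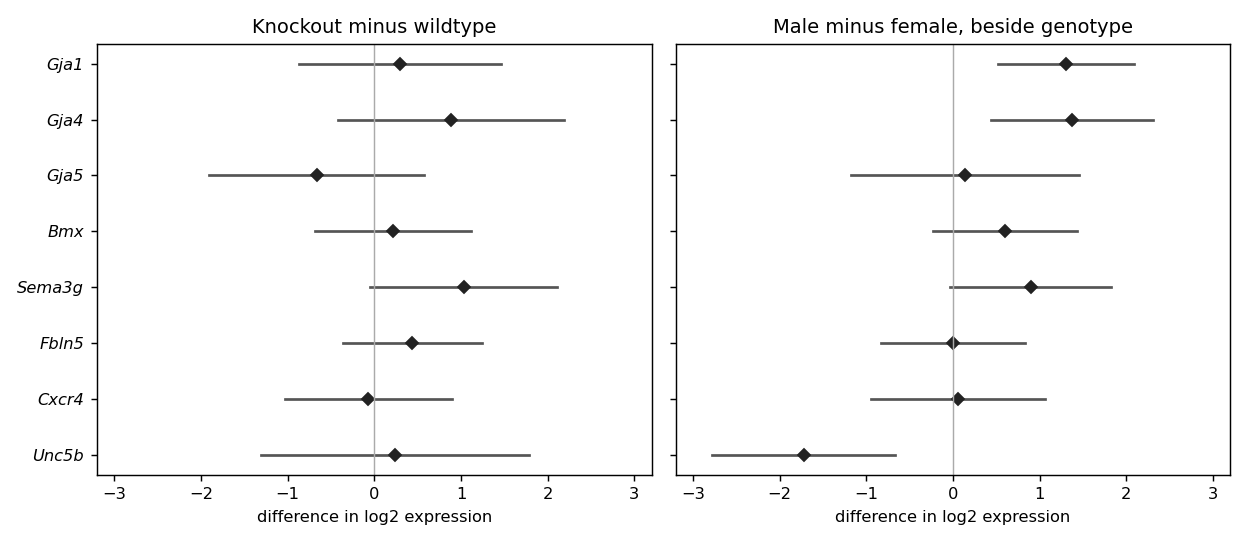
Differences in log2 expression (horizontal axes) of the 8 arterial genes, knockout minus wildtype on the left and male minus female beside genotype on the right; diamonds are limma estimates over the 6 arrays and lines their 95% intervals. On the left every interval includes 0, and on the right those of Gja1, Gja4 and Unc5b do not.

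The spread over the 6 arrays was larger for most of these genes than for most genes tested. Their median SD was 0.80, against a median of 0.47 and an upper quartile of 0.62 over all genes tested. Their mean levels ranked from the 53.8th (Bmx) to the 98.3rd (Gja1) percentile of genes with a symbol, and spread was not compared at like level. Unc5b (SD 1.06), Gja4 (0.97), Gja5 (0.87), Sema3g (0.86) and Gja1 (0.74) lay at the 97.1st, 95.7th, 93.1st, 92.5th and 86.7th percentile, while Cxcr4 (0.52), Bmx (0.48) and Fbln5 (0.42) lay at the 60.6th, 51.5th and 39.3rd. The split between genotypes held 43.5% of the sum of squares of Sema3g, 33.7% of that of Fbln5, 24.7% of that of Gja4 and 17.4% of that of Gja5, and 0.49% to 6.03% for the other 4, where the median over all genes tested was 9.95%. The split between the sexes held 81.6% of the sum of squares of Gja1, 70.0% of that of Unc5b and 53.3% of that of Gja4, where the median over all genes was 26.7%.

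Sex was the other label that differed between animals, and it was compared beside genotype in the same arrays. Gja1 and Gja4 had higher and Unc5b lower values in both males than in the females, but none of the 8 genes passed the test. Gja1 had 16.00 and 15.54 in males 52 and 37, against 14.10 to 14.91 in the 4 females, a difference of 1.30 (standard error 0.35, limma unadjusted p = 0.00426, adjusted p = 0.141). Gja4 had 8.35 and 8.10 in the males, against 5.92 to 7.96 in the females, a difference of 1.38 (standard error 0.42, adjusted p = 0.160), which was 0.90 without wildtype 37. Unc5b had 7.20 and 6.98 in the males, against 7.97 to 9.48 in the females, a difference of -1.72 (standard error 0.47, unadjusted p = 0.00478, adjusted p = 0.143). For each of these genes both males lay outside the range of the females. Gja5 differed by 0.14, Bmx by 0.61, Sema3g by 0.90 (0.10 without wildtype 37 and 1.69 without knockout 52), Fbln5 by 0.0025 and Cxcr4 by 0.055, all with overlapping values.

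Differences between the sexes were common over all genes. At an unadjusted p under 0.05 there were 3 of 8 genes, against 18.7% of all genes tested, and the males lay outside the female range for 3 of 8 genes, against 31.7% of all. At an adjusted p under 0.05 there were 0 of 8, against 0.0261% of all, or 3 genes. The male arrays also had the lowest spike-in means (8.82 and 8.91, against 9.33 to 10.42 in the females) and low keratinocyte medians (7.99 and 7.51, against 7.98 to 13.88). With the spike-in mean as a covariate the sex differences were 0.51 for Gja1, 0.27 for Gja4 and -0.14 for Unc5b, and with the keratinocyte median they were 0.95, 1.0 and -0.82 (both settings chosen after seeing the data). There were only 2 males, and female 27 was the only female with as low a keratinocyte median. The interaction of genotype and sex had 0 of 8 genes at an adjusted p under 0.05, as for all genes (0%), and 0 of 8 at an unadjusted p under 0.05, against 1.03%.

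**Figure D3:**
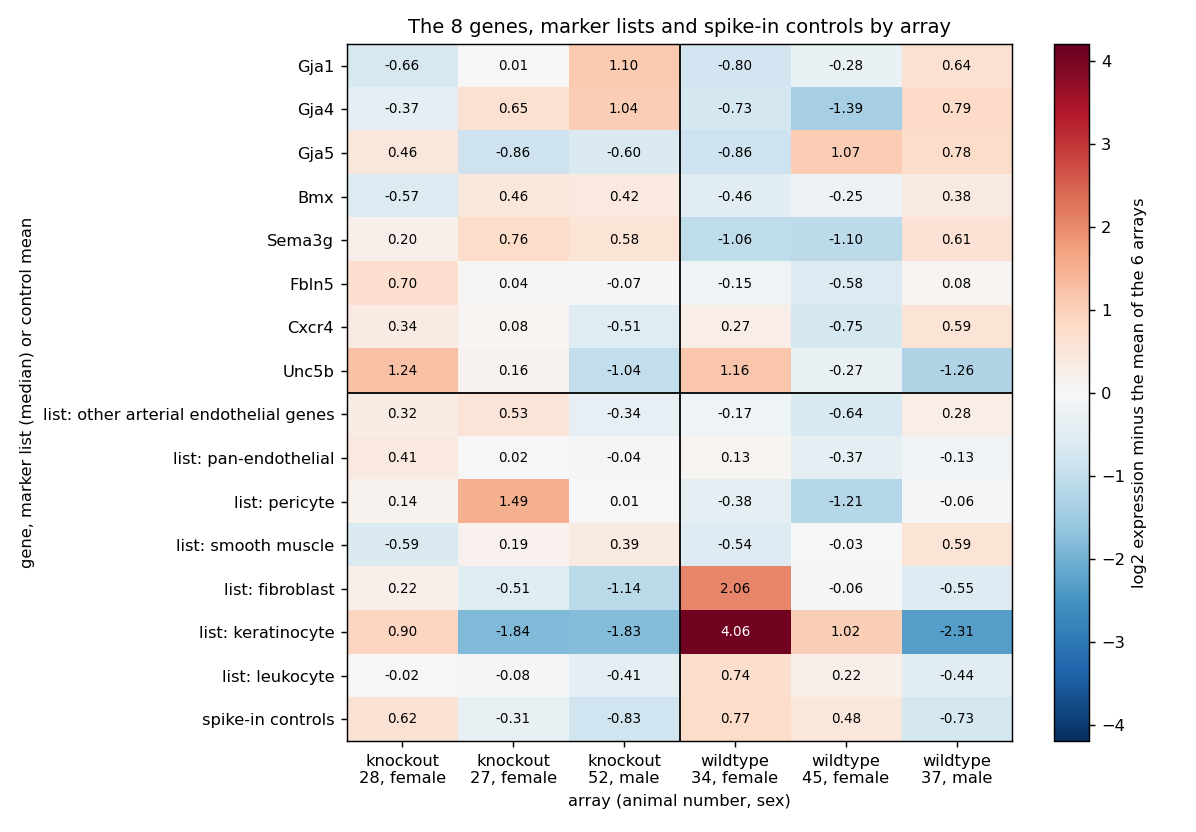
Log2 expression of the 8 arterial genes, medians of marker lists and the spike-in mean on each array, each row centred on its mean over the 6 arrays (colour scale and printed values), knockout arrays left of wildtype arrays. Gja1 and Gja4 are above their means on the male arrays 52 and 37, where Unc5b, the keratinocyte list and the spike-in controls are below theirs, and Gja5 is high on wildtype 45, where Gja4 is lowest.

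Other genes of the arterial programme gave no call either. Of 25 other arterial endothelial genes 23 were tested, 0 were called in either direction, and 19 had a higher and 4 a lower mean in the knockout, with a median difference of 0.25. The smallest p values belonged to Efnb2, Hey2 and Notch1, as genes that did not pass. Efnb2, the ephrin of arterial endothelium, had 13.16, 12.31 and 11.95 in knockout 28, 27 and 52, against 11.87, 10.90 and 11.81 in wildtype 34, 45 and 37 (difference 0.95, unadjusted p = 0.0523, adjusted p = 0.999). It was the 1 gene of the 23 whose groups did not overlap, against 6.25% of all genes tested. Notch1, the receptor upstream of the arterial programme, had 12.21, 11.36 and 10.42, against 11.11, 9.93 and 10.09 (difference 0.95). Hey2, a repressor induced by Notch, differed by 0.70 at levels of 3.14 to 4.50, under the background medians. For Efnb2, Hey2, Notch1, Sema3g and Gja4 alike, wildtype 45 was the lowest of the 6 animals. That array also had the lowest pan-endothelial (14.30) and pericyte (7.99) medians, and without wildtype 45 the median difference of the arterial list was 0.14. Leaving out knockout 52 gave 0.087, knockout 28 gave 0.40 and wildtype 37 gave 0.60. The pan-endothelial genes themselves had a median difference of 0.38, with 9 of 11 higher on average, 2 lower and 0 called, and Esam, Erg and Tie1 had the smallest p (differences of 0.92, 0.80 and 0.50).

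The other connexins and pannexins were mostly dim in these cells. Of 20 genes 13 had a named probeset and 8 were tested, with 5 higher and 3 lower on average in the knockout, 0 called and a median difference of 0.085. The smallest p were those of Gjd2 (-0.68), Gjc1 (0.71) and Gjb6 (-0.54). Gjc1 had 7.79, 7.86 and 7.69 in knockout 28, 27 and 52, against 5.92, 7.40 and 7.89 in wildtype 34, 45 and 37, so that wildtype 34 alone stood low. Gjd2, a connexin of neurons, and Gjb6, a connexin of epidermis, averaged 3.2 and 4.04 in knockout cells and 3.88 and 4.57 in wildtype cells, at or under the background levels. Among 13 tested partners and regulators of connexins 0 were called, and all 13 had a higher mean in the knockout, by a median of 0.14. Over all genes tested 54.1% had a higher mean. The median of these 13 ran from 0.057 (without knockout 28) to 0.44 (keratinocyte median as a covariate) over the 17 alternatives. Tjp1, the scaffold ZO-1 that binds connexins at the junction, had 14.32, 13.96 and 14.06, against 13.17, 12.86 and 13.87 (difference 0.81, unadjusted p = 0.0487, adjusted p = 0.999). It was the 1 gene of the 13 whose groups did not overlap, against 6.25% of all genes tested. Nos3, the endothelial nitric oxide synthase, differed by 0.60 and Foxc2 by 0.41.

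Partners of the remaining genes were examined by the same counts, and none was called. For Cxcr4, 12 genes of its ligand, scavenger receptor and regulators had 7 higher and 5 lower means in the knockout (median 0.18). Rgs16, which damps G protein signals, had 18.98, 19.14 and 18.83, against 17.32, 17.55 and 18.85 (difference 1.08, unadjusted p = 0.0326, adjusted p = 0.999), Cxcl12 differed by 0.93 and Epas1 by 0.48, and wildtype 45 had the lowest Cxcl12 (16.42, against 18.24 to 19.16 elsewhere). For Unc5b, 13 tested genes of netrin, Slit and Robo guidance had 6 higher and 7 lower means (median -0.067). Robo2 differed by -0.96 (unadjusted p = 0.0421, adjusted p = 0.999), Slit1 by -0.55 and Robo1 by 0.45, all at means under 6. The groups did not overlap for 2 of the 13 genes, against 6.25% of all genes tested, and 1 of them was Slit1, at levels below background. For Sema3g, 8 tested genes of the other class 3 semaphorins, the neuropilins and the plexins had 4 higher and 4 lower means (median 0.098), with Sema3e at -1.0, Plxna2 at 0.56 and Sema3b at 0.34. For Bmx, 10 tested Tec kinases and genes of PI3K signalling had 8 higher and 2 lower means (median 0.13). Stat3, which Bmx can activate, had 14.71, 14.25 and 14.45, against 13.57, 13.43 and 14.15 (difference 0.75, unadjusted p = 0.0521, adjusted p = 0.999). Pik3ca differed by 0.88 and Pik3cd by -0.46. The groups did not overlap for 3 of these 10 genes, against 6.25% of all genes tested. Among the 3 were Stat3, higher in the knockout, and Pik3cd, lower at levels of 3.18 to 4.01. For Fbln5, 13 tested genes of elastic fibre assembly had 4 higher and 9 lower means (median -0.07), with Loxl1 at -0.89, Fbn1 at -0.69 and Mfap2 at 0.36, and Loxl1 was high on wildtype 34 alone (6.99, against 4.54 to 5.02 elsewhere). The small medians of these lists moved with single animals, and some changed sign. The connexin and pannexin median was -0.083 without wildtype 37 and the Cxcr4 one -0.035 without knockout 52. The guidance median was 0.093 without knockout 27 and 0.023 without wildtype 34, and the semaphorin median was -0.24 without knockout 27 and -0.21 without wildtype 37.

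**Figure D4:**
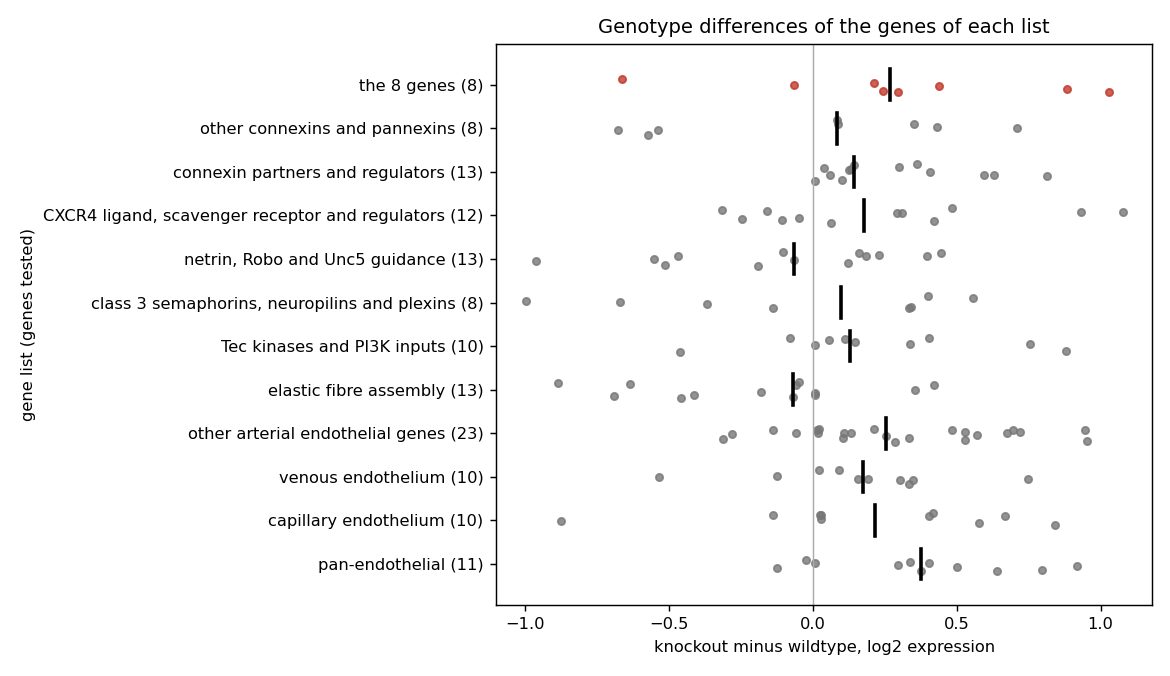
Knockout minus wildtype differences in log2 expression (horizontal axis) of the tested genes of 12 lists (the 8 arterial genes, their partners and 4 lists of endothelial markers), with the number of genes tested in brackets; points are genes, scattered vertically for legibility, and black bars are list medians. The medians of the lists drawn lie between -0.07 and 0.38, and the 8 arterial genes span -0.66 to 1.03.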

How the data were processed

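The deposited values are log2 expression per probeset, which the authors computed by RMA, using Affymetrix Expression Console (source: per the submitters' processing notes). Versions, the probeset library and the build: not given in the sources used here. That they are log2 rests on the RMA entry and their range. They were used as deposited. The number of arrays limits precision: the median standard error of a genotype difference was 0.387.

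Of 24834 probesets, 15037 genes with a symbol in the platform annotation were kept, by the probeset of highest mean where a gene had several. Genes whose mean lay below 3.52, the 25th percentile over probesets, were left out, which left 11515. Background levels are the 23 deposited background probesets. All 8 Entrez identifiers matched RefSeq (GRCr8), as did all 8 start-site windows.

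Knockout and wildtype were compared with limma 3.58.1 under R 4.3.3 (lmFit, then eBayes; 6 arrays, genotype alone). Separate fits added sex, and sex with its interaction. Adjusted p-values are two-sided Benjamini-Hochberg values over all genes tested. Each array is 1 animal. The scripts were tested on simulated data. The genes and lists (7 of partner genes, 11 of cell markers) were chosen with earlier results of these data known; lists are described by counts and medians. Named from each list are the 3 genes of smallest p and any called, and for each of the 8 genes the 3 nearest in pattern, with predicted names passed over. Alternatives were other filters, normalizations, covariates, weights and eBayes options, the mean of a gene's probesets, females only, and leaving out each array.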

Additional observations from a re-analysis of the deposited data

How the results depend on the processing

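No paired analysis was possible because the labels give each animal a number of its own. None of the 8 arterial genes was called between genotypes under any of the 17 alternatives, with adjusted p of 0.501 to 1, and Gja4 (0.36 to 1.5), Sema3g (0.57 to 1.59), Gja5 (-1.26 to -0.29) and Fbln5 (0.20 to 0.74) kept their sign in all of them. Cxcr4 was 0.01 after quantile normalization again, 0.45 in the females only and 0.0055 with array weights. Gja1 and Bmx were -0.053 and -0.0046 with the spike-in mean and -0.20 and -0.12 with the keratinocyte median as a covariate. Without single arrays Gja1 ran between -0.18 and 0.70, Bmx between 0.035 and 0.55, Cxcr4 between -0.46 and 0.21 and Unc5b between -0.325 and 0.89. Il33, the only gene called, was -6.84 with no filter and with a filter at the 50th percentile and -6.87 in the females only. In each of these settings 0 genes were called by limma. Without single arrays Il33 ran between -7.71 and -6.34, with 0 to 1 genes called. The count was 0 without knockout 28, 27 or 52 or wildtype 45 or 37.

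Between the sexes 29 genes were called with centring on array medians, 26 with trend and robust eBayes, 717 with array weights and 1 with the spike-in mean as a covariate, and 2 to 66 without single arrays (66 without knockout 27). With array weights Gja1 (1.33), Gja4 (1.38) and Unc5b (-1.77) were called, with adjusted p of 0.0356, 0.0469 and 0.0328, and Fbln5 was -0.038. After quantile normalization again Gja5 was -0.19, Fbln5 -0.38 and Cxcr4 -0.12. With the spike-in mean as a covariate Bmx was -0.60 and Sema3g -0.12, and with the keratinocyte median Gja5 was -0.46; both were chosen after seeing the data. Without single arrays Gja4 ran between 0.90 and 1.85, Sema3g between 0.10 and 1.69, Bmx between 0.40 and 0.84, Gja5 between -0.40 and 0.68, Fbln5 between -0.44 and 0.45 and Cxcr4 between -0.72 and 0.83. The cause of these changes was not tested.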

Other observations

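Genes of the other vessel types were also measured. Of 10 tested venous genes 8 had a higher and 2 a lower mean in the knockout, with a median difference of 0.18 and 0 called. That median was negative when knockout 52 (-0.33) or wildtype 34 (-0.22) was left out, and with the spike-in mean (-0.17) or the keratinocyte median (-0.41) as a covariate. Tll1 differed by -0.53, Nrp2 by 0.33 and Aplnr, the apelin receptor, by 0.35. Of 10 tested capillary genes 8 were higher and 2 lower on average, with a median of 0.22 and 0 called (0.0042 without knockout 28 and 0.59 without knockout 52). Esm1, a gene of sprouting endothelium, had 8.43, 5.52 and 5.72 in knockout 28, 27 and 52, against 6.35, 5.85 and 4.94 in wildtype 34, 45 and 37, so that knockout 28 alone stood high; Apln differed by -0.88 and Timp4 by 0.58. The male arrays had the higher venous values, with a median difference of 1.26 over the list beside genotype and 0 genes called.

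Of 6 tested lymphatic genes 5 had a higher and 1 a lower mean in the knockout (median 0.68, 0 called between genotypes), with differences of 0.71 for Flt4, 1.01 for Lyve1 and 1.87 for Ccl21. The median was -0.27 without wildtype 37, 0.30 without knockout 27 and 1.19 without wildtype 45. The males had lower lymphatic values, with a median difference of -2.16 beside genotype, and 1 gene of the list, Ccl21, was called between the sexes (11.52 in males and 16.01 in females on average). Smooth muscle genes had a median difference of 0.23 (7 of 10 higher, 3 lower; Myh11 0.61, Myocd 0.38, Lmod1 0.48) and pericyte genes one of 0.84 (8 of 8 higher on average; Pdgfrb 1.13, Higd1b 0.85, Abcc9 1.33), with 0 called in both lists. Without wildtype 34 the smooth muscle median was -0.15, and without wildtype 45 it was -0.056 and the pericyte median 0.52. Keratinocyte genes had a median difference of -1.50, with 1 of 8 higher and 7 lower on average and 0 called (Perp -2.02, Tp63 -1.46, Krt15 -2.75); the median was -0.28 without wildtype 34, -2.50 without knockout 28 and -2.95 without wildtype 37. The smallest p among fibroblast genes were those of Col1a2, Col1a1 and Fbn1 (-1.04, -1.99 and -0.69), and among leukocyte genes those of Tyrobp, Cd3e and Csf1r (-0.63, -0.58 and -0.64), with 0 called in either list. All 4 tested erythroid genes had a higher mean in the knockout (median 1.87, 0 called). That median was 0.77 without knockout 28 and 0.97 without wildtype 45. Hba-a1 had 18.29, 15.01 and 15.44 in knockout 28, 27 and 52, against 15.76, 11.22 and 15.51 in wildtype 34, 45 and 37 (difference 2.08). Hba-a3 had 13.04, 8.17 and 9.63, against 8.74, 6.73 and 9.18 (difference 2.06). For both, knockout 28 was the highest and wildtype 45 the lowest. Alas2, an enzyme of haem synthesis in red cell precursors, had 5.46, 4.13 and 4.81, against 3.21, 3.62 and 3.99. It was the 1 gene of the 4 whose groups did not overlap, against 6.25% of all genes tested.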
